A study of Mus musculus with 8 samples.

Results

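The rod photoreceptor genes are a list of 41 genes whose products build and run the rod, the retinal cell that responds to dim light. They were measured in the retina of adult C57BL/6J mice, on 8 Affymetrix Mouse Gene 1.0 ST arrays, and a gene counted as measured where the annotation of the array gave a probe set to that gene symbol alone. This held for 39 of the 41 genes, of 19938 genes measured in this way among 28853 probe sets, and *Nr2e3* and *Guca1b* were not analysed here. *Cngb1* had several such probe sets, and the one with the highest mean stood for it.

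The 4 groups, with 2 arrays each, were the inferior retina of mice kept in 75% oxygen, the inferior retina of control mice in room air, and the superior retina of both kinds of mice. All mice were raised in dim cyclic light. The oxygen exposure was started at 83 to 90 days of age and lasted 14 days, and control retinas were taken at matched ages. Every sample pooled the retinal region of 2 animals, a male and a female, and whether equal replicate numbers mark shared animals is not stated in the sources. The comparisons ask whether the rod genes differ between exposed and control retina, in which region, and whether the regions differ in the absence of hyperoxia. Levels are log2 signals, so that a difference of 1 is a doubling.

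Rods catch light in the outer segment, a stack of membrane discs joined to the cell body by a connecting cilium. Light-activated rhodopsin switches on transducin, transducin relieves the inhibition of a cyclic GMP phosphodiesterase, and the fall in cyclic GMP closes the cation channel of the outer segment. Kinase, arrestin, guanylate cyclase and calcium sensors then restore the dark state, while the transcription factors Crx and Nrl keep rod genes on. Prolonged high oxygen is known to kill photoreceptors in adult rodents.

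The probe sets of all 39 genes were bright. Several of the genes, among them *Crx*, *Prph2*, *Abca4* and *Cacna1f*, are also used by cones. The dimmest member, *Fscn2*, averaged 10.1 over the 8 arrays, a signal reached by 8.24% of all probe sets. Array medians over all probe sets lay between 6.98 and 7.05. Several lists of other cell markers differed between arrays. Of 12 microglia markers, 12 were higher in hyperoxia-exposed than in control inferior retina and 10 of these rose past an adjusted p under 0.05. Their median deviation from each gene's own mean over 8 arrays was 1.05 and 1.19 on the hyperoxia inferior arrays and -0.42 and -0.44 on the control inferior arrays, against 0.022 and 0.038 in hyperoxia-exposed superior retina and -0.57 and -0.61 in control superior retina. The 16 lens markers had a median deviation of 3.24 on control inferior replicate 2 and between -0.82 and 0.031 on the other arrays. The 13 markers of the retinal pigment epithelium had -0.044 and 0.21 on the hyperoxia inferior arrays and -0.38 and 0.31 on the control inferior arrays, against 0.39 and 0.52 in hyperoxia-exposed superior retina and -0.90 and -0.17 in control superior retina. The part of microglia in the results below was not tested, and counts that moved with a covariate for lens or pigment epithelium transcripts are given beside them.

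In the inferior retina, most rod genes lay below the control level after hyperoxia, by small amounts, and no single gene passed the test. Of 39 genes, 34 had a lower mean in hyperoxia-exposed than in control inferior retina and 5 a higher one. The median log2 difference was -0.19, against 0.0054 over all probe sets, and single genes ran between -0.58 for *Kcnv2* and 0.46 for *Impg2*. At an adjusted p under 0.05 (limma, Benjamini-Hochberg over all probe sets) 0 of 39 rod genes were called, where 0.492% of all probe sets were. At an unadjusted p under 0.05, 15 rod genes (38.5%) were lower, against 4.43% of all probe sets, and 1 was higher, against 4.96%. With the methods' t-test, run as contrasts without moderation, 0 were called after adjustment and 11 were lower before it. With a variance trend in the fit, another alternative listed below, *Gngt1*, *Gucy2f*, *Impg2* and *Nrl* passed after adjustment. Both hyperoxia arrays lay below both control arrays for 23 rod genes (59.0%), against 18.1% of all probe sets, and above them for 1 gene, against 20.5%. For 21 rod genes (53.8%) the 2 hyperoxia inferior arrays were below all 6 other arrays, which was so for 5.52% of all probe sets.

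The 2 arrays of hyperoxia-exposed inferior retina were not alike. Replicate 2 was below replicate 1 for 39 of 39 rod genes, with a median gap of -0.22 and a range of -0.50 to -0.072. The same gap had a median of 0.0097 in control inferior, -0.035 in hyperoxia superior and 0.067 in control superior retina. Replicate 2 held the lowest of the 8 values for 35 rod genes, the exceptions being *Sag*, *Impg2*, *Aipl1* and *Unc119*. Set against the control inferior mean, the median difference was -0.33 on replicate 2 and -0.069 on replicate 1, and 37 rod genes on replicate 2 (against 31.6% of all probe sets) and 23 on replicate 1 (against 34.7%) lay below both control arrays. Without replicate 2 the number of rod genes lower at an unadjusted p under 0.05 was 6 (3.56% of all probe sets were), and without replicate 1 it was 25 (4.98% were). In these fits the remaining array was assumed to vary as the other groups do. Without replicate 2, 25 of the 39 rod genes had a mean below control, and *Gnat1*, *Gnb1*, *Guca1a*, *Prph2*, *Prom1*, *Rp1*, *Tulp1*, *Impg1* and *Unc119* turned above it. Without replicate 1, 38 lay below, and *Sag*, *Rdh8*, *Rbp3* and *Aipl1* turned below control. Over the 2378 probe sets as bright as *Fscn2* or brighter, replicate 2 minus replicate 1 had a median of -0.013, a set that mixes genes of many cell types. The p-values reflect no more than the spread among these pooled samples, and in whole retina fewer rods and less RNA per rod cannot be told apart.

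**Figure D1:**
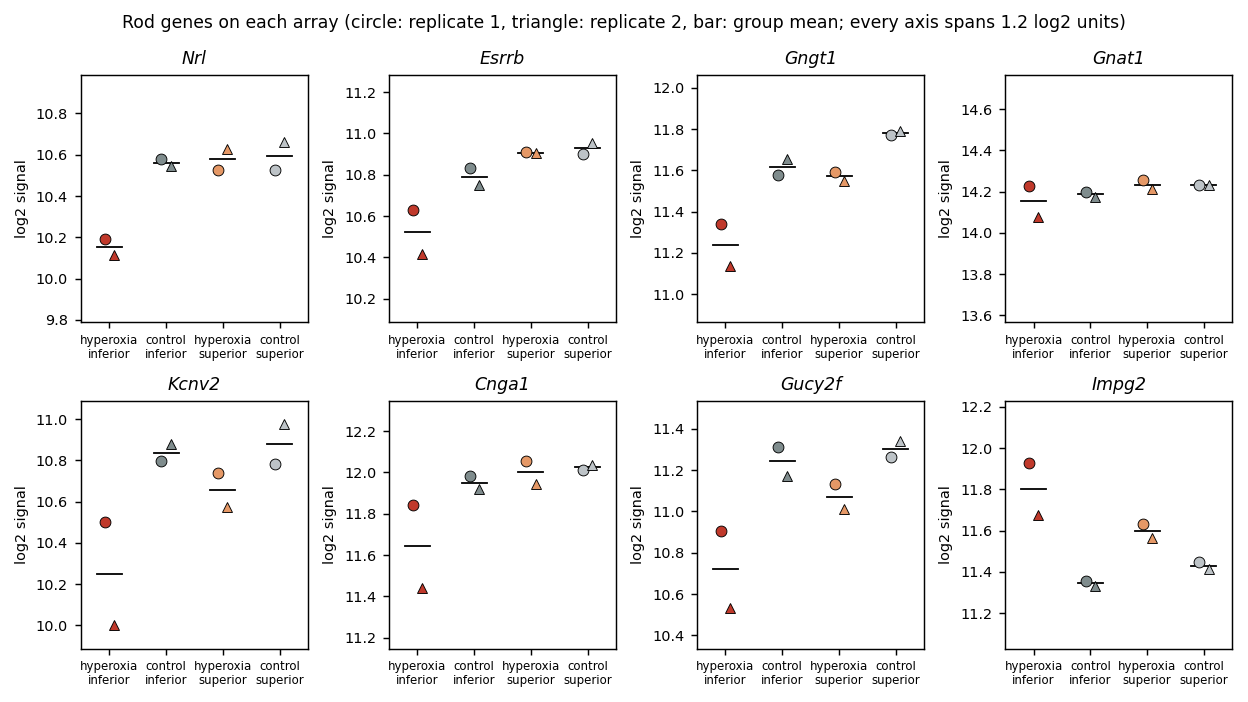
Log2 signal of 8 rod genes on each array, with circles for replicate 1, triangles for replicate 2 and bars for group means; each vertical axis spans the same number of log2 units. The hyperoxia inferior arrays lie below the control inferior arrays for *Nrl*, *Esrrb*, *Gngt1*, *Kcnv2*, *Cnga1* and *Gucy2f*, above them for *Impg2*, and on both sides of them for *Gnat1*.

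The 3 transcription factors measured all lay lower in hyperoxia-exposed inferior retina, with a median difference of -0.27 (-0.16 without hyperoxia inferior replicate 2). *Nrl*, which directs precursor cells to the rod fate and maintains rod expression in the adult, had 10.19 and 10.11 on the hyperoxia inferior arrays and 10.58 and 10.55 on the control inferior arrays. Its superior values were 10.53 and 10.63 after hyperoxia and 10.53 and 10.66 in control. Both hyperoxia inferior arrays were thus below the other 6, and its replicates in that group lay close together. The difference in the inferior retina was -0.41 (SE 0.09, adjusted p = 0.136 with limma, and 0.0268 to 0.484 over 20 alternatives). Without hyperoxia inferior replicate 2 it was -0.37. *Esrrb*, an orphan nuclear receptor needed for rod survival in mice, had 10.63 and 10.42 on the hyperoxia inferior arrays against 10.83 and 10.75 on the control inferior arrays, a difference of -0.27. *Crx*, the homeodomain factor of rods and cones, had 12.18 and 11.87 after hyperoxia and 12.20 and 12.21 in control inferior retina. Its first hyperoxia array was close to the control arrays and its second well below them.

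The 4 genes of the channels and the exchanger had a median difference of -0.35 in the inferior retina, and of -0.16 without hyperoxia inferior replicate 2. Each was lower at an unadjusted p under 0.05 with no overlap between the groups. *Kcnv2*, a modifier subunit of the potassium channels of the photoreceptor inner segment, had 10.50 and 10.00 on the hyperoxia inferior arrays and 10.79 and 10.88 on the control inferior arrays. The difference of -0.58 was the lowest of the 39, and also the one whose hyperoxia arrays lay farthest apart. *Cnga1*, the alpha subunit of the rod cyclic GMP-gated channel, had 11.84 and 11.44 against 11.98 and 11.92 in control inferior retina. *Cngb1*, its beta subunit, had 11.41 and 11.00 against 11.63 and 11.56. The 3 other probe sets of *Cngb1* had differences of -0.094, -0.25 and -0.28, beside -0.39 for the brightest. *Slc24a1*, the exchanger that carries calcium out of the rod outer segment, had 12.33 and 12.06 against 12.42 and 12.49, a difference of -0.26. The same 4 genes in superior retina had differences of -0.22 for *Kcnv2* and between -0.062 and -0.021 for the others.

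Phototransduction enzymes were spread more widely. *Gngt1*, the gamma subunit of rod transducin, had 11.34 and 11.14 on the hyperoxia inferior arrays and 11.58 and 11.66 on the control inferior arrays, with no overlap and a difference of -0.38. It was also among the lowest in the superior retina, with 11.59 and 11.55 after hyperoxia against 11.77 and 11.79 in control, a difference of -0.21 (SE 0.10, adjusted p = 0.884 with limma, and 0.739 to 1.00 over 20 alternatives). Its partner subunits stood near 0. *Gnat1*, the alpha subunit of rod transducin, had 14.23 and 14.08 after hyperoxia and 14.20 and 14.18 in control inferior retina, so that the groups overlapped. *Gnb1*, the beta subunit, which many other cell types also use, had a difference of -0.025. The phosphodiesterase genes *Pde6a*, *Pde6b* and *Pde6g* had -0.18, -0.16 and -0.17, none at an unadjusted p under 0.05. *Pdc*, which encodes phosducin, a binding partner of the transducin beta and gamma subunits, had 12.77 and 12.61 against 12.95 and 12.88 in control inferior retina, a difference of -0.22. Over the 7 genes the median was -0.17 in inferior retina (-0.033 without hyperoxia inferior replicate 2) and 0.0015 in superior retina.

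Among 6 genes of deactivation, guanylate cyclase and calcium feedback the median was -0.18 in the inferior retina (-0.016 without hyperoxia inferior replicate 2), and 1 gene stood apart. *Gucy2f*, a guanylate cyclase that rebuilds cyclic GMP after light, had 10.91 and 10.53 on the hyperoxia inferior arrays, against 11.31 and 11.17 on the control inferior arrays. Its superior values were 11.13 and 11.01 after hyperoxia and 11.26 and 11.34 in control, so that the groups were separate in both regions, with differences of -0.52 and -0.23. The second cyclase of the outer segment, *Gucy2e*, had 10.20 and 9.77 against 10.23 and 10.18 in control inferior retina, a difference of -0.22 carried by 1 array. *Grk1*, the rhodopsin kinase, had -0.22, and *Rcvrn*, the calcium sensor that restrains this kinase, -0.15. *Guca1a*, an activator of the cyclases at low calcium, had -0.046. *Sag*, the rod arrestin, had 13.42 and 13.32 after hyperoxia against 13.32 and 13.36 in control inferior retina, and its difference of 0.033 was among the 5 above 0.

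Both genes of the synaptic calcium channel were lower at an unadjusted p under 0.05 in the inferior retina, without overlap. *Cacna1f* encodes the pore of the channel that drives glutamate release at photoreceptor terminals, and had 10.45 and 10.22 after hyperoxia against 10.69 and 10.62 in control. *Cabp4*, a calcium-binding protein that tunes this channel, had 10.84 and 10.77 against 11.07 and 11.14. Its replicates lay close together in each group, and its difference was -0.30, beside -0.32 for *Cacna1f*. Their median was -0.31, and -0.23 without hyperoxia inferior replicate 2.

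Of the 8 genes of discs, outer segment and cilium, all 8 had a lower mean in hyperoxia-exposed inferior retina (median -0.15) and 3 were lower at an unadjusted p under 0.05. With hyperoxia inferior replicate 2 left out, 4 of the 8 were lower (median -0.065), and *Prph2*, *Prom1*, *Rp1* and *Tulp1* were not. *Fscn2*, a photoreceptor fascin that bundles actin, had 9.94 and 9.82 after hyperoxia and 10.26 and 10.28 in control inferior retina, a difference of -0.39. *Rpgrip1*, which anchors the RPGR protein at the connecting cilium, had 10.81 and 10.70 against 11.02 and 11.12, a difference of -0.31. *Prcd*, a small protein of disc membranes, had 10.44 and 10.34 against 10.64 and 10.69, a difference of -0.28. In these 3 genes the groups did not overlap in the inferior retina. The disc-rim proteins differed less, with -0.19 for *Rom1* and -0.064 for *Prph2*. *Prom1*, which acts where new discs form, *Tulp1*, which takes part in protein transport to the outer segment, and *Rp1*, which stabilises the axoneme, lay between -0.11 and -0.067.

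The interphotoreceptor matrix held the 1 rod-list gene with both hyperoxia inferior arrays above both control inferior arrays, though it was not called. *Impg2*, a proteoglycan of the matrix around the photoreceptor segments, had 11.93 and 11.68 on the hyperoxia inferior arrays and 11.36 and 11.33 on the control inferior arrays. In superior retina, values were 11.63 and 11.56 after hyperoxia and 11.45 and 11.41 in control. The groups were therefore separate in both regions, with the hyperoxia arrays higher. The difference was 0.46 in the inferior retina (SE 0.10, adjusted p = 0.136 with limma, and 0.0240 to 0.392 over 20 alternatives) and 0.17 in the superior retina. Without hyperoxia inferior replicate 2, the array on which 35 rod genes were lowest, it was 0.58. *Impg1*, the other proteoglycan of this matrix, had 10.68 and 10.41 against 10.68 and 10.62 in control inferior retina, a difference of -0.11 with overlapping groups.

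Genes of retinoid handling and of chaperones were mixed. *Rdh12*, a retinal reductase of the inner segment, had 12.02 and 11.83 after hyperoxia against 12.20 and 12.24 in control inferior retina, a difference of -0.29. Its difference in the superior retina was -0.21 (SE 0.10, adjusted p = 0.884 with limma, and 0.748 to 1.00 over 20 alternatives). *Abca4*, the flippase that clears retinal from disc membranes, had 12.34 and 12.03 against 12.41 and 12.40, a difference of -0.22. *Rdh8*, the retinal reductase of the outer segment, and *Rbp3*, the retinoid-binding protein of the matrix, had 0.090 and 0.040. *Reep6*, which serves membrane trafficking in rods, had 12.87 and 12.68 against 12.99 and 13.03, a difference of -0.24. *Aipl1*, the chaperone of the phosphodiesterase, and *Unc119*, which carries lipid-modified transducin, had 0.030 and -0.0052.

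**Figure D2:**
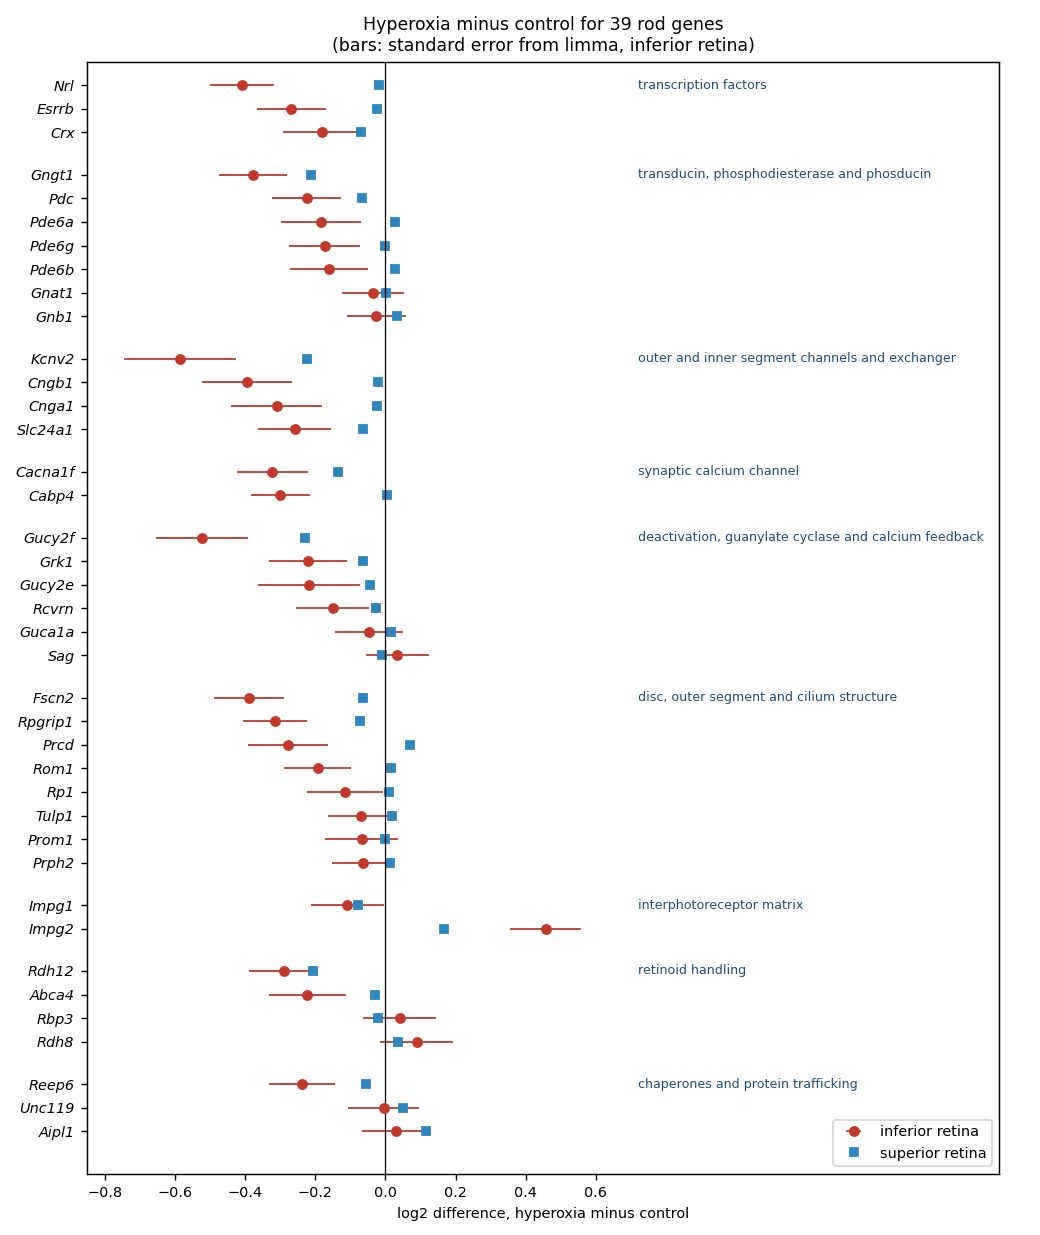
Log2 difference of hyperoxia minus control for the 39 rod genes, grouped by role. Circles show the inferior retina, with bars for the standard error from limma. Squares show the superior retina without bars, as each gene has the same standard error in both regions. In the inferior retina 34 genes lie left of 0 and *Impg2* lies farthest right; in the superior retina the genes lie between -0.23 and 0.17.

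When the genes were ordered by their mean signal, the 13 dimmest had a median difference of -0.30 in the inferior retina, the middle 13 of -0.22 and the 13 brightest of -0.11. At an unadjusted p under 0.05, 9, 5 and 1 of them were lower. Across the 39 genes, which share arrays and are not independent replicates, mean signal and difference had a Pearson correlation of 0.36 and a Spearman correlation of 0.47. Signals of different probe sets are not on one scale of RNA amount, so this is a description of the probe sets.

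In the superior retina the rod genes of exposed and control mice lay close together. Of 39 genes 24 were lower after hyperoxia and 15 higher, with a median of -0.021. None of the 39 (0) was called at an adjusted p under 0.05, against 0.0173% of all probe sets, and at an unadjusted p under 0.05, 0 were lower, against 2.16% of all probe sets. Groups without overlap and with hyperoxia lower were found for 13 rod genes (33.3%), against 17.2% of all probe sets. The control arrays here include control superior replicate 2, the highest of all arrays for 22 rod genes. The lowest differences, -0.23 for *Gucy2f*, -0.22 for *Kcnv2* and -0.21 for *Gngt1* and *Rdh12*, belonged to genes that were also lower at an unadjusted p under 0.05 in the inferior retina.

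The difference between the 2 hyperoxia responses was then tested gene by gene. It was negative for 35 of 39 rod genes, with a median of -0.17 and a range of -0.39 to 0.29. Hyperoxia inferior replicate 2, the lowest array for 35 rod genes, enters this difference. Without that array the median was much smaller in size, as given under the dependence on processing. At an adjusted p under 0.05, 0 rod genes were called (0.00347% of all probe sets were), and at an unadjusted p under 0.05, 3 were lower (7.69%, against 3.03%), *Nrl*, *Cabp4* and *Fscn2*. That number was 0 with a pigment epithelium covariate and 1 with a lens covariate. For *Nrl* the inferior minus the superior response was -0.39 (SE 0.13, adjusted p = 0.782 with limma, and 0.439 to 0.998 over 19 alternatives). For *Cabp4* the value was -0.30 (SE 0.12, adjusted p = 0.802 with limma, and 0.551 to 0.998 over 19 alternatives). For both genes the superior arrays of exposed and control mice overlapped.

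Within exposed mice, the inferior retina was set against the superior. These comparisons share the hyperoxia inferior arrays with those above. Of 39 rod genes 37 were lower in the inferior region, with a median of -0.23 and a range of -0.42 to 0.20, and 28 (71.8%) had no overlap in that direction, against 18.5% of all probe sets. After adjustment 0 rod genes were called, against 0.139% of all probe sets, and at an unadjusted p under 0.05, 18 were lower (46.2%, against 4.25%). Without hyperoxia inferior replicate 2 that number was 3 (3.99% of all probe sets were lower). *Nrl* had a difference of -0.42 (SE 0.09, adjusted p = 0.208 with limma, and 0.0511 to 0.560 over 20 alternatives). *Esrrb* had 10.63 and 10.42 in the inferior and 10.91 and 10.90 in the superior region of exposed mice, a difference of -0.38 (SE 0.10, adjusted p = 0.328 with limma, and 0.0826 to 0.689 over 20 alternatives). *Impg2* and *Sag* were the 2 genes with a higher mean in the inferior region, by 0.20 and 0.077.

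In control mice the regions lay closer together. Of 39 rod genes 31 were lower in the inferior region, with a median of -0.055, and differences ran between -0.18 and 0.14. At an adjusted p under 0.05, 0 rod genes were called, as were 0% of all probe sets, and at an unadjusted p under 0.05, 0 were lower, against 2.81%. Groups without overlap and with the inferior region lower were found for 19 genes (48.7%), against 16.7% of all probe sets. Control superior replicate 2 held the highest value of all arrays for 22 rod genes. *Rcvrn* had 11.94 and 11.82 in the inferior and 12.05 and 12.08 in the superior region, a difference of -0.18 (SE 0.10, adjusted p = 0.947 with limma, and 0.830 to 1.00 over 20 alternatives). *Gngt1* had a difference of -0.16 (SE 0.10, adjusted p = 0.947 with limma, and 0.721 to 1.00 over 20 alternatives). *Fscn2*, with 10.26 and 10.28 in the inferior and 10.04 and 10.22 in the superior region, lay at the other end.

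Averaged over both regions, hyperoxia minus control had a median of -0.10 over the rod genes, beside -0.19 for inferior and -0.021 for superior retina alone. After adjustment 0 were called (0.568% of all probe sets were), at an unadjusted p under 0.05 9 were lower (23.1%, against 4.02%, and 5 with a pigment epithelium covariate), and *Impg2* was higher (against 4.96%). *Impg2* had a difference of 0.31 (SE 0.07, adjusted p = 0.163 with limma, and 0.0298 to 0.648 over 19 alternatives). *Gngt1* had -0.29 (SE 0.07, adjusted p = 0.165 with limma, and 0.0283 to 0.833 over 19 alternatives). Averaged over both oxygen conditions, inferior minus superior had a median of -0.13, with 36 of 39 genes below 0. Both averages include hyperoxia inferior replicate 2, the lowest array for 35 rod genes. In exposed mice alone the median was -0.23, and 18 genes were lower at an unadjusted p under 0.05. In control mice alone it was -0.055, with 31 of 39 genes below 0 and 0 lower at that p. For the average, 0 were again called at an adjusted p under 0.05 (0.0173% of all probe sets were). At an unadjusted p under 0.05, 11 were lower (28.2%, against 4.2%), or 7 with a pigment epithelium and 5 with a lens covariate. The smallest p-values belonged to *Esrrb*, at -0.26 (SE 0.07, adjusted p = 0.51 with limma, and 0.215 to 0.858 over 19 alternatives), and to *Gngt1*, at -0.25 (SE 0.07, adjusted p = 0.521 with limma, and 0.215 to 0.884 over 19 alternatives).

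The rod genes were next set beside the marker lists of other retinal cells, array by array. On the hyperoxia inferior arrays the rod genes had a median deviation of -0.049 and -0.28, against 0.021 and 0.024 on the control inferior arrays. On the superior arrays they had 0.056 and 0.026 after hyperoxia and 0.045 and 0.12 in control. Hyperoxia inferior replicate 2 thus stood below every other array. The 10 cone markers, genes of the other photoreceptor class, had 0.085 and -0.071 on the hyperoxia inferior arrays and -0.064 and -0.11 on the control inferior arrays, and the 10 Müller glia markers -0.012 and 0.10 against 0.11 and 0.081. On hyperoxia inferior replicate 2 the markers of bipolar, amacrine, horizontal, ganglion and Müller cells had positive medians, between 0.016 and 0.10, while those of cones (-0.071) and endothelium (-0.084) were below 0. On replicate 1 the same bipolar to Müller lists had negative medians, between -0.13 and -0.012. In hyperoxia minus control, inferior retina, the median difference was -0.15 for amacrine (9 of 10 lower) and -0.12 for ganglion markers (8 of 9 lower). Of all probe sets, 48.4% were lower there. It was -0.031 for bipolar, -0.047 for horizontal and 0.0046 for Müller markers. The rod genes had 0.024 on control inferior replicate 2, where lens transcripts were high, and 0.021 on control inferior replicate 1. The microglia markers had 1.05 and 1.19 on the 2 hyperoxia inferior arrays. The part of microglia transcripts in the rod values was not tested, and counts that moved with a lens covariate are given where they belong.

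**Figure D3:**
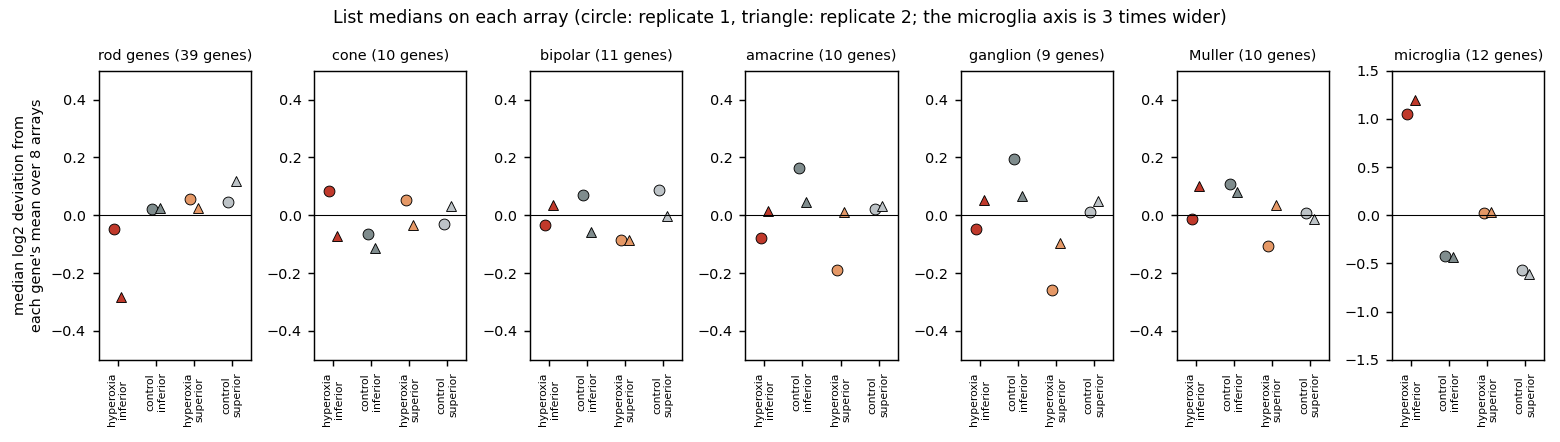
Median over the genes of a list of the log2 deviation from each gene's mean over 8 arrays, for the rod genes and 6 lists of cell markers, with circles for replicate 1 and triangles for replicate 2. The rod genes are lowest on hyperoxia inferior replicate 2, at -0.28, and the microglia markers, on a wider axis, stand at 1.05 and 1.19 on the hyperoxia inferior arrays.

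Other photoreceptor genes outside the list had medians nearer 0 in the inferior retina, and their counts called stand beside the 0.492% of all probe sets called there. The median deviations of these lists were -0.18 to -0.10 on hyperoxia inferior replicate 2 and -0.021 to 0.0029 on replicate 1. Between 16.7% and 46.2% of a list had no overlap with hyperoxia lower, against 18.1% of all probe sets. Some of their probe sets were dimmer than any rod gene's, down to a mean of 5.61 for *Cacnb2*. Among 13 measured genes of the outer segment and phototransduction the median difference was -0.10 and 0 were called, with *Rgs9bp*, the anchor of the complex that turns transducin off, at -0.47 (SE 0.13, adjusted p = 0.218 with limma, and 0.0666 to 0.664 over 20 alternatives) and *Rp1l1*, a relative of *Rp1*, at -0.30. Among 12 transcription regulators the median was -0.065 and 0 were called. *Mef2c*, a MADS-box factor, had 9.93 and 9.58 on the hyperoxia inferior arrays against 10.28 and 10.21 on the control inferior arrays, and *Neurod1*, a factor that keeps photoreceptors alive in mice, had 11.89 and 11.73 against 11.55 and 11.52. These 2 lay on opposite sides of control, at -0.49 and 0.28. Among 18 genes of the cilium and ciliary transport the median was -0.075 and 0 were called, with *Fam161a* at -0.35 and *Cep290* at -0.38. Without hyperoxia inferior replicate 2 the differences were -0.38 for *Rgs9bp*, -0.096 for *Rp1l1*, -0.31 for *Mef2c* and 0.36 for *Neurod1*. They were -0.23 for *Fam161a* and -0.19 for *Cep290*.

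Of 17 genes of the photoreceptor ribbon synapse the median was -0.080, and 1 was called (0.492% of all probe sets were). *Lin7b*, a PDZ scaffold protein of synapses, rose in hyperoxia-exposed inferior retina, with 8.63 and 8.87 on the hyperoxia inferior arrays and 7.84 and 7.91 on the control inferior arrays. In the superior retina it had 8.03 and 7.99 after hyperoxia and 7.95 and 7.77 in control. The inferior difference was 0.87 (SE 0.11, adjusted p = 0.0138 with limma, and 0.00215 to 0.255 over 20 alternatives), and 5 alternatives put it above the threshold, among them those without control inferior replicate 1 (0.0591), control inferior replicate 2 (0.0525) or hyperoxia inferior replicate 2 (0.114). *Dmd*, whose short products lie at photoreceptor terminals, had 10.09 and 9.85 against 10.32 and 10.30, a difference of -0.34.

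The promoters of a few rod genes are shown because Crx binds short TAATCC-type elements in front of many photoreceptor genes, and because the genes below were among those with small p-values in the inferior retina, picked with their values known. RefSeq sequence (GRCm38.p6) was found for 32 of the 41 genes, in 36 windows of 300 bases. Each runs from 250 bases before an annotated start, which need not be the outermost start of the gene. The letters TAATCC on either strand were present in 14 of 36 windows (38.9%), against 7.06% of all 32851 windows, and the letters TGCTGA, the core of a Maf-type element to which Nrl binds, in 9 (25%), against 19.5%. No 2 matches of different type overlapped. A match is a description of the letters and not a binding site. The 250 bases before the start follow, 5′ to 3′ in the direction of the gene, with the matches in capitals. A TAATCC match on the opposite strand reads GGATTA, and a TGCTGA match there reads as TCAGCA.
Gngt1: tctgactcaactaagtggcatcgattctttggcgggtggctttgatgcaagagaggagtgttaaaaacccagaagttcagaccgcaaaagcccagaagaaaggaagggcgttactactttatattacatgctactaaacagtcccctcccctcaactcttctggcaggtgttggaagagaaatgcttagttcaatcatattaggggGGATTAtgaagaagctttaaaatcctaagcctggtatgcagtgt
Gucy2f: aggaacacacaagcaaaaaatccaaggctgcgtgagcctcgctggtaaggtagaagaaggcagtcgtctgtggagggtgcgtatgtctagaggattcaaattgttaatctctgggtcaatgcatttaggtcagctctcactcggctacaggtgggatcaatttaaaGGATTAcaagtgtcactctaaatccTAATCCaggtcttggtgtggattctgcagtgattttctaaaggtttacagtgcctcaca
Rpgrip1: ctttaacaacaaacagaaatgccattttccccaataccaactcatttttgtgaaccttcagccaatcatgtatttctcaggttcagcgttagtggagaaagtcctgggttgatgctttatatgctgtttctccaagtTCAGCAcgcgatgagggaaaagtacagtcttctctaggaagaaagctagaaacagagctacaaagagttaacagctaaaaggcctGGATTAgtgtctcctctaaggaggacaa
Nrl: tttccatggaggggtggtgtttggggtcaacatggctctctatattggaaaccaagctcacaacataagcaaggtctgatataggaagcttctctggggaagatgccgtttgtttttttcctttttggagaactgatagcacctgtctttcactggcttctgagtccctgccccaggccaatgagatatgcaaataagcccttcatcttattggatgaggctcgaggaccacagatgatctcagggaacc
Impg2: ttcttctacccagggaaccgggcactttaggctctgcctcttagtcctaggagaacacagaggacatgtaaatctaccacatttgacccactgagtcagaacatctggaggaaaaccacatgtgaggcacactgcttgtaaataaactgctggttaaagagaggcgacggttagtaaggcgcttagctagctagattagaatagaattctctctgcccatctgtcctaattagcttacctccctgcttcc

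These stretches lie at chr6:3993758-3994007 on the plus strand for *Gngt1*, chrX:142196937-142197186 on the minus strand for *Gucy2f*, chr14:52110653-52110902 on the plus strand for *Rpgrip1*, chr14:55524253-55524502 on the minus strand for *Nrl* and chr16:56204063-56204312 on the plus strand for *Impg2*. All of them lie inside the annotated span of their gene, which begins at chr6:3989082 for *Gngt1* and at chr14:52104241 for *Rpgrip1*. Distances below are therefore to the start used and not to the outermost start. *Gngt1* has 1 TAATCC-type match, 44 bases before the start used. *Gucy2f*, with the second lowest difference in the inferior retina, has 2, at 84 and 59 bases. *Rpgrip1* has 1 at 28 bases and 1 match of the TGCTGA type. *Nrl*, a lower gene, and *Impg2*, the higher one, have neither in this window. The 14 measured rod genes with a TAATCC-type match had a median difference of -0.22 in the inferior retina (-0.52 to 0.040), and the 17 with a window and no match had -0.19 (-0.41 to 0.46).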

How the data were processed

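RNA of superior and inferior retina was measured on 8 arrays (4 groups of 2). The values deposited by the authors are log2 signals per probe set, which they obtained with Partek after RMA background correction and median polish. Tool versions, and any normalization between arrays, were not given in the sources used here. The log2 signals were analysed as deposited. Of 28853 probe sets, 21789 carried 1 gene symbol, 1621 several and 5443 none listed. Probe sets of the second and last kind were used for no gene.

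A linear model with 1 mean per group was fitted to the 8 arrays in limma 3.58.1 (R 4.3.3), leaving 4 residual degrees of freedom beside 4.47 from the prior. Moderated p-values were corrected by the Benjamini-Hochberg method across the whole table, and 0.05 was the threshold. Tables and plots were made in Python 3.11.15. The fit was tested on simulated data. The number of arrays limits the precision.

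The rod genes and all lists were chosen with earlier results of these data known. Full statistics were given for any rod gene called and for the 2 with the smallest p in each comparison, and genes of the other lists were named where called or among the 2 smallest p of a list. *Gnb3* was chosen after its values were seen.

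Tried as alternatives were a block for the replicate number, covariates for lens and pigment epithelium transcripts, omission of each array in turn, the arrays compared alone, a robust prior or a variance trend, the methods' t-test, quantile or median scaling, omission of dim probe sets (mean under 6), a table of 1-symbol probe sets, and averaging of a gene's probe sets.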

Additional observations from a re-analysis of the deposited data

How the results depend on the processing

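Of 41 results under 20 alternatives, 759 values stayed on the same side of the threshold or within the spread between replicates, 37 moved, 5 were weaker and 4 stronger, and none of the 14 rod gene results given with a standard error changed direction. For results far above the threshold, staying there is a weak check. The replicate medians of the rod genes had a pooled SD of 0.088, more than the size of the medians in superior retina (-0.021) and between control regions (-0.055). Over all 39 rod genes in the inferior retina, 9 changed direction without hyperoxia inferior replicate 2 and 4 without replicate 1. Leaving out each array in turn, the median difference of the rod genes ran from -0.33 to -0.069 (hyperoxia minus control, inferior), from -0.33 to -0.10 (inferior minus superior after hyperoxia) and from -0.27 to -0.041 (difference of the responses), the ends being without hyperoxia inferior replicate 1 and 2. In the superior retina it ran from -0.057 to 0.0072, above 0 without control superior replicate 2. Counts of rod genes lower at an unadjusted p under 0.05 ran from 6 to 25, 3 to 27 and 0 to 12 in those 3 comparisons, from 7 to 21 for hyperoxia over both regions and from 5 to 23 for inferior minus superior over both conditions.

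With a variance trend, 4 rod genes passed in the inferior retina (*Gngt1*, *Gucy2f*, *Impg2* and *Nrl*) and 2 over both regions (*Gngt1* and *Impg2*), and the unadjusted counts were 6 for the difference of the responses, 15 for hyperoxia over both regions and 20 for inferior minus superior over both conditions. With a pigment epithelium covariate they were 0, 5 and 7. With a lens covariate they were 1 for the difference of the responses and 5 for inferior minus superior over both conditions. The cause was not tested.

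Same-numbered arrays had deviations that correlated between -0.021 and 0.14, so the numbers were not taken as pairs. With the replicate number as a block, 16 rod genes were lower at an unadjusted p under 0.05 in the inferior retina, against 15 without it, the median stayed at -0.19 and 0 passed after adjustment.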

Other observations

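Of 10 cone markers, 7 had a higher mean in hyperoxia-exposed than in control inferior retina (51.6% of all probe sets did), with a median difference of 0.045. The groups did not overlap in that direction for 2 (20%, against 20.5% of all probe sets), and 1 was called, against 0.492%. The difference between the cone and rod lists was not tested. The called marker was *Gnb3*, the beta subunit of cone transducin, which ON bipolar cells also use, picked after its values were seen. The other cone markers differed by -0.065 to 0.20. In the superior retina *Gnb3* had 11.39 and 11.33 after hyperoxia and 11.17 and 11.17 in control, a difference of 0.19. *Gnb3* rose by 0.87 in the inferior retina (SE 0.08, adjusted p = 0.00368 with limma). It had 12.00 and 12.05 on the hyperoxia inferior arrays and 11.20 and 11.11 on the control inferior arrays, while its rod counterpart *Gnb1* had 14.27 and 14.18 against 14.25 and 14.25. *Gnat2*, the alpha subunit of cone transducin, had 11.84 and 11.65 against 11.68 and 11.70, with overlapping groups.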
